A study of Mus musculus with 6 samples.

Results

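The genes described here are 37 cell cycle genes, 14 that act in DNA replication (S phase) and 23 that act in mitosis, read on the arrays of a study of the developing joint. They were taken as every non-control spot whose deposited gene name was one of the 37 symbols, which gave 51 probes on 60 spots, out of 55681 probes in all. Of the 37 genes, 36 were among the 18003 genes tested. The arrays compared the intermediate with the outer interzone of mouse embryos at 15.5 days of gestation, with 3 embryos per layer and 1 array per sample. The interzone is the band of flattened, condensed cells that forms where a joint will lie between cartilage elements. The labels name no genotype, strain, sex, joint or treatment for either group, and no method of dissecting one layer from the other. Gdf5, a growth factor gene that marks the interzone, was well above background on all 6 arrays.

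A dividing cell copies its DNA in S phase and separates the copies in mitosis. S phase genes are switched on by E2F factors as the cell leaves G1, and the proteins load and run the replicative helicase, make deoxynucleotides and copy DNA and chromatin. Mitosis genes are held off by the DREAM complex and switched on later, through B-MYB, the MuvB core and FOXM1, often at CHR elements and CCAAT boxes in their promoters, and their proteins build the spindle, attach and check the chromosomes and cut the cell apart. In bulk tissue the level of such a gene follows both the number of cells in that phase and the amount of RNA per cell, and these cannot be told apart here.

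The promoters are shown first because the motifs known for each class were spread unequally between the 2 lists. RefSeq promoters (assembly GRCm38.p6, 250 bases before to 50 after the gene start) were listed for 31 of the 37 genes and for 27025 genes in all. Tpx2, Kif20a, Aurkb, Ccna2, Foxm1 and Mcm4 were not matched. Each stretch below is the 160 bases just before a start, 5′ to 3′ on the gene's strand, with the motif matches in capitals. The first group holds mitosis genes with a CHR element (TTTGAA or TTTAAA, or TTCAAA on the other strand) near a CCAAT box (CCAAT, or ATTGG on the other strand).
Ccnb1, chr13:100786487-100786646, minus strand: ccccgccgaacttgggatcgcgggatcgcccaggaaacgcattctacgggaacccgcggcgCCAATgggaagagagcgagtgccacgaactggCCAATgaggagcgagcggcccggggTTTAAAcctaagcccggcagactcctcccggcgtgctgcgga
Cdc20, chr4:118437344-118437503, minus strand: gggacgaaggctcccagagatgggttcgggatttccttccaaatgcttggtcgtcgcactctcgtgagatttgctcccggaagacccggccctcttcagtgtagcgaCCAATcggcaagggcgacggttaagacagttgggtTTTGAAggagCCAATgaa
Prc1, chr7:80294316-80294475, plus strand: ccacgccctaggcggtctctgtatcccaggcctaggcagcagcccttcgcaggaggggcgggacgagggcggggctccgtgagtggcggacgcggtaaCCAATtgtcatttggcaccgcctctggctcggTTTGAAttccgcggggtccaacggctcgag
Kif11, chr19:37376222-37376381, plus strand: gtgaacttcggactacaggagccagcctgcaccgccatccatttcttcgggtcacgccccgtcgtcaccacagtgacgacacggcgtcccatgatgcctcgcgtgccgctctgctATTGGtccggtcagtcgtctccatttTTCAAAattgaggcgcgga
The second group holds S phase genes with an E2F site (TTTCCCGC, TTTCGCGC, TTTGCCGC or TTTGGCGC, either strand), some with CCAAT boxes as well. In Mcm5 and Mcm6, matches on opposite strands overlap and form 1 longer run of capitals.
Mcm5, chr8:75109349-75109508, plus strand: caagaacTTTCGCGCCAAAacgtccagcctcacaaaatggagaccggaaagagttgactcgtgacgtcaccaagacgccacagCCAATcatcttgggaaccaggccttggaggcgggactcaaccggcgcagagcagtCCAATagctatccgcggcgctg
Mcm6, chr1:128359706-128359865, minus strand: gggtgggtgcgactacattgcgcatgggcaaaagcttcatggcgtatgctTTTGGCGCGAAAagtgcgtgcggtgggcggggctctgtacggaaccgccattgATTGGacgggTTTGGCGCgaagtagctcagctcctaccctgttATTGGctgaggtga
Hells, chr19:38930830-38930989, plus strand: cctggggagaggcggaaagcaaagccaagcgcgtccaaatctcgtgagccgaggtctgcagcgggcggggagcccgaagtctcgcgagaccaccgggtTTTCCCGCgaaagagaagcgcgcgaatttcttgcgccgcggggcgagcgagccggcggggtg

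An E2F site stood in the promoters of 6 of 13 S phase genes (46.2%), 1 of 18 mitosis genes (5.56%) and 2.6% of all listed genes. The mitosis gene was Cdk1. A CHR element stood in 16 of 18 mitosis promoters (88.9%), in 5 of 13 S phase promoters (38.5%) and in 30.6% of all. A CCAAT box was found for 16 of 18 mitosis genes (88.9%), 9 of 13 S phase genes (69.2%) and 41.1% of all. Both a CHR element and a CCAAT box were present for 15 mitosis genes (83.3%), 4 S phase genes (30.8%) and 12.2% of all. These are matches of letters on either strand, not sites shown to be bound.

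**Figure D1:**
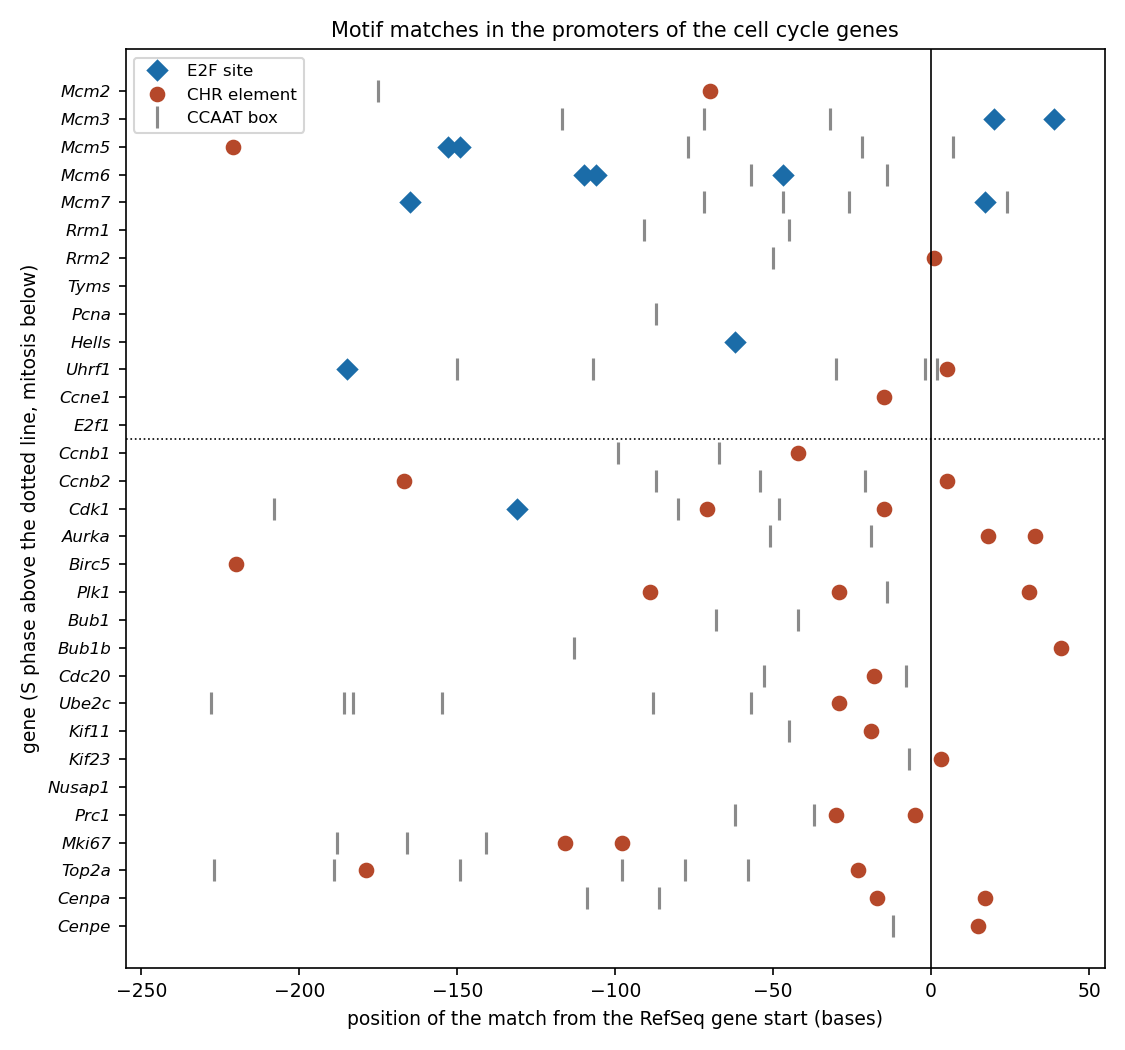
Motif matches in the RefSeq promoters of the 31 listed genes, by distance in bases from the gene start (0), with S phase genes above the dotted line and mitosis genes below it; genes with several listed starts show the matches of each. E2F sites (diamonds) lie in 6 of 13 S phase and 1 of 18 mitosis promoters, and CHR elements (circles) in 5 of 13 and 16 of 18.

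The comparison of the layers asks which genes differ between the intermediate and outer interzone. Values are log2 signal relative to each array's 75th percentile, and every difference is outer minus intermediate. The genes called, meaning a limma adjusted p under 0.05 over all 18003 genes, were 729 (4.05%), with 282 higher (1.57%) and 447 lower (2.48%) in the outer layer. None of the 36 tested cell cycle genes was called, in either direction. By limma's unadjusted p under 0.05, 3 of 36 passed (Kif20a, Nusap1 and Bub1), against 21.1% of all genes in either direction. All 3 were among the 22 tested mitosis genes and higher in the outer layer, and 0 of 14 S phase genes passed. Of all genes, 9.07% passed with the lower value in the outer layer, and the rest of the 21.1% with the higher value there. With arrays scaled to their median, 0 of the 36 passed. The lowest adjusted p was 0.114 in limma's test, for Kif20a, and the lowest among the S phase genes was 0.341, for Mcm7. What follows therefore gives levels and differences with their errors, for genes whose difference did not pass the test.

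Arrays differed in brightness. The 75th percentile of signal ran from 47.4 to 344, and 35.6% to 53.4% of spots were well above background, with outer replicate 1 lowest in both. The 3 intermediate arrays and outer replicate 1 shared a slide, and outer replicates 2 and 3 lay on another. No spot was saturated. Of the 37 genes, 35 were above background on all 6 arrays. Tyms was so on 2 of 3 outer arrays, and Aurkb on 2 of 3 arrays of each layer, which left it untested.

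Averaged over the 14 genes, the S phase level was 3.20, 3.44 and 3.33 on the intermediate arrays and 3.14, 3.76 and 3.36 on the outer arrays. The layers overlapped, with means of 3.33 ± 0.12 and 3.42 ± 0.32 (SD, n = 3) and a difference of 0.09. Averaged over the 23 mitosis genes, the level was 2.56, 2.97 and 2.50 in the intermediate and 3.06, 3.24 and 2.91 in the outer layer. The lowest outer array was below the highest intermediate one, and the means were 2.68 ± 0.25 and 3.07 ± 0.17 (SD, n = 3), a difference of 0.39. All 23 mitosis genes had a positive difference and 11 of 14 S phase genes did, but these signs hang on the scaling: with arrays scaled to their median, 8 of 23 and 0 of 14 were positive, and with quantile normalization 23 of 23 and 7 of 14. Within the slide that held both layers, from 1 outer array, the S phase difference was -0.19 and the mitosis difference 0.38. Without outer replicate 2 the S phase difference was -0.08, and without outer replicate 1 it was 0.23.

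The position of the lists relative to other genes cannot move with a scaling constant. The median difference of all tested genes was 0.10 with the 75th percentile and -0.29 with the array median. The mitosis list's median difference was 0.37, or 0.27 above that of all genes, and the S phase list's was 0.08, or 0.02 below it (-0.02). Since a constant per array shifts all genes alike, both of these relative values must be the same under either scaling. They rest on the filter on dim probes, since without it the median of all genes was 0.44 and both lists lay below it, mitosis at -0.07 and S phase at -0.36. Above the median of all genes lay 21 of 23 mitosis genes (all but Foxm1 and Top2a) and 6 of 14 S phase genes.

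On a single array a scaling constant cancels when the S phase mean is subtracted from the mitosis mean. That subtraction gave -0.64, -0.47 and -0.83 in the intermediate and -0.08, -0.52 and -0.45 in the outer layer. The sign of these values reflects the probes and carries no meaning, and only the shift between arrays does. The means were -0.65 ± 0.18 and -0.35 ± 0.24 (SD, n = 3), a difference of 0.30. The layers overlapped, since outer replicate 2 lay below intermediate replicate 2. Between same-numbered samples the shift was 0.56 for replicate 1, -0.05 for replicate 2 and 0.38 for replicate 3. Without outer replicate 1, the dimmest array, the difference was 0.16. On the slide that held both layers it was 0.57, from that 1 outer array.

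**Figure D2:**
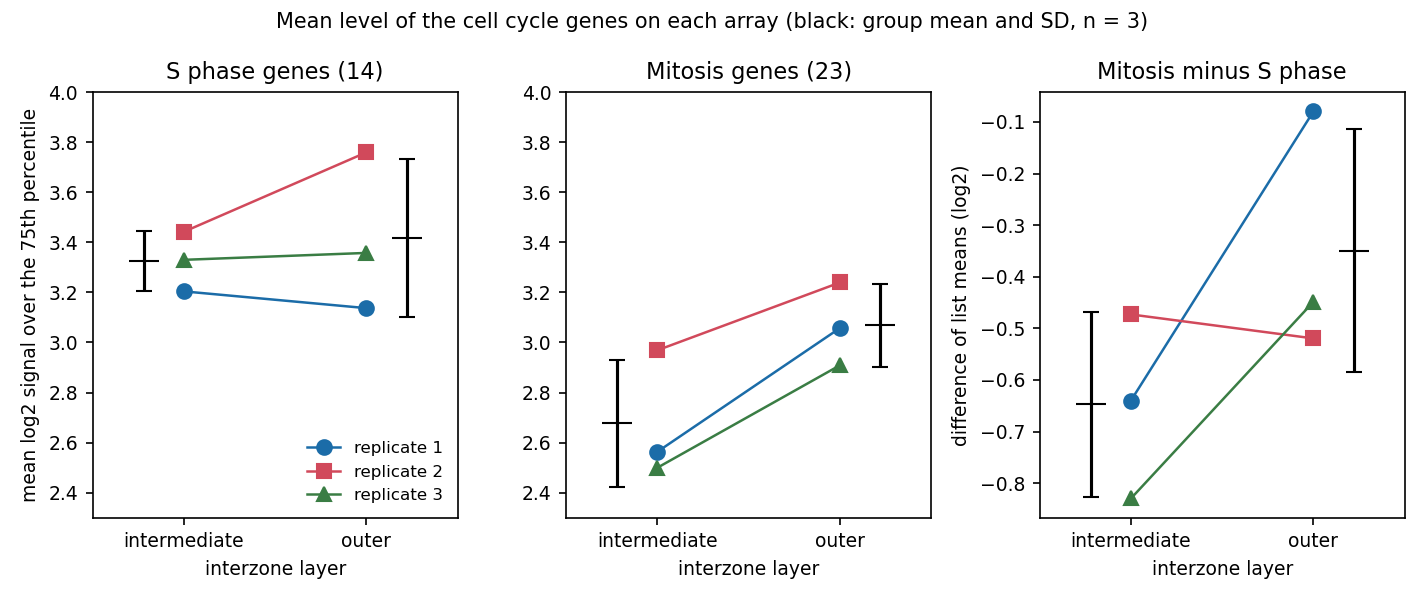
Mean log2 signal over each array's 75th percentile for the 14 S phase genes, the 23 mitosis genes and the mitosis minus S phase mean, with 1 point per array and lines joining same-numbered samples. The S phase difference is -0.07, 0.32 and 0.03 in the replicate 1, 2 and 3 pairs and the mitosis difference 0.49, 0.27 and 0.41, while median scaling puts their group differences at -0.30 and near 0.

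The 3 pairs did not carry the S phase genes in the same way. In the replicate 2 pair all 14 S phase genes had the higher value in the outer layer, whereas in the replicate 1 pair 8 of 14 and in the replicate 3 pair 7 of 14 had the lower value there. For the mitosis genes, 1, 2 and 2 of 23 had the lower outer value in pairs 1, 2 and 3. These counts are on the 75th percentile scale, which the median scaling shifts towards lower outer values. Within the outer layer, replicate 2 had the highest value for all 14 S phase genes and replicate 1 the lowest for 12. Among the intermediate arrays replicate 2 was highest for 11 S phase and 21 of 23 mitosis genes. In the outer layer the mitosis genes were less tied to that sample, with replicate 2 highest for 14 and replicate 1 for 8.

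**Figure D3:**
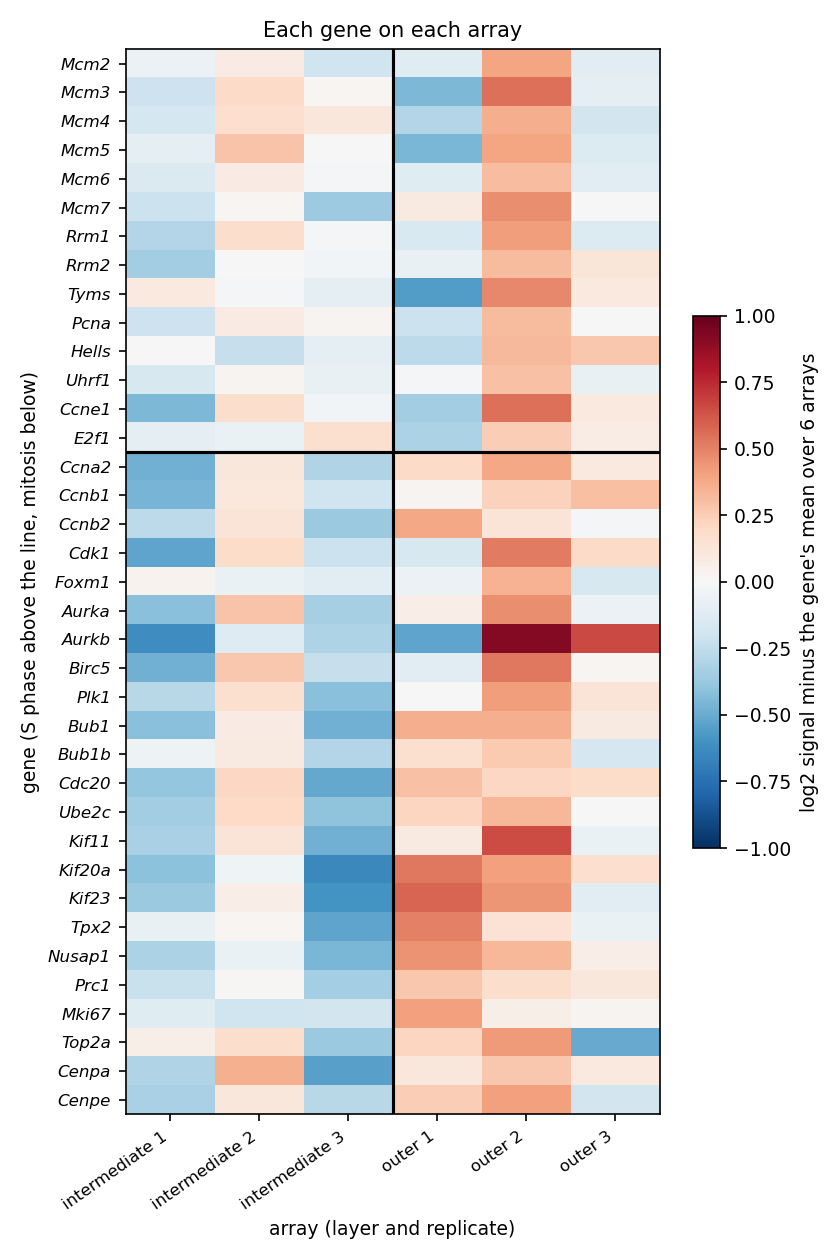
Each gene's log2 signal on each of the 6 arrays after subtracting the gene's own mean over the arrays, with S phase genes above and mitosis genes below. The replicate 2 arrays are the highest of their layer for 11 of 14 (intermediate) and 14 of 14 (outer) S phase genes; colours are on the 75th percentile scale, and under median scaling all 14 S phase genes and 15 of 23 mitosis genes have the lower mean in the outer layer.

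The replicative helicase is a ring of 6 MCM proteins, loaded in G1 and activated in S phase. Its 6 genes had a median difference of 0.03, from -0.14 for Mcm5 to 0.37 for Mcm7. Mcm6 (probe at chr1:130228178-130228237, mm9) read 5.93, 6.16 and 6.06 in the intermediate and 5.96, 6.39 and 5.96 in the outer layer. The layers overlapped and the difference was 0.05 (SE 0.19, 95% interval -0.40 to 0.50, limma adjusted p = 0.903). Mcm7 (chr5:138605925-138605984) read 4.61, 4.84 and 4.46 against 4.91, 5.29 and 4.82. Intermediate replicate 2 lay just above the lowest outer value, so the layers overlapped, although each outer sample was above its same-numbered partner by 0.30, 0.45 and 0.36. The difference was 0.37, or 1.29-fold, with an interval of -0.10 to 0.84 and a limma adjusted p of 0.341. Mcm2 had a difference of 0.11, Mcm3 of -0.00, Mcm4 of -0.08 and Mcm5 of -0.14, with limma adjusted p-values from 0.791 to 1.00.

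Rrm1 and Rrm2 encode the subunits of ribonucleotide reductase, which makes deoxynucleotides, and Tyms encodes thymidylate synthase, which makes the thymine nucleotide. Rrm2 (chr12:25398824-25398883) read 4.34, 4.70 and 4.66 in the intermediate and 4.61, 5.01 and 4.81 in the outer layer. The layers overlapped, with a difference of 0.24 (SE 0.19, limma adjusted p = 0.504). Rrm1 had a difference of 0.08 and Tyms, dim on every array, of 0.01.

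Pcna is the sliding clamp that holds polymerases on DNA, and Hells and Uhrf1 restore DNA methylation and chromatin behind the fork. Pcna (chr2:132075022-132075054) read 5.09, 5.38 and 5.32 against 5.08, 5.61 and 5.30. The layers overlapped, and the difference was 0.07 (SE 0.20, limma adjusted p = 0.874), with a gap of 0.24 in the replicate 2 pair. Hells (chr19:39039914-39039973) read -0.79, -1.03 and -0.89 against -1.06, -0.47 and -0.53. Outer replicate 1 was the lowest of all and the other outer values the highest, for a difference of 0.22 (SE 0.21, limma adjusted p = 0.584). Uhrf1 had a difference of 0.14. Of the genes that open S phase, Ccne1, the cyclin that drives entry, had a difference of 0.20 and E2f1, a transcription factor for this list, of 0.00. In the main fit, the 95% intervals of all 14 S phase genes contained 0 and lay inside -1 to 1 (from -0.73 to 0.87 over the list). With arrays scaled to their median, all 14 differences were negative, from -0.53 for Mcm5 to -0.02 for Mcm7. Intervals on that scale are not given, so these bounds hold for the main fit only.

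**Figure D4:**
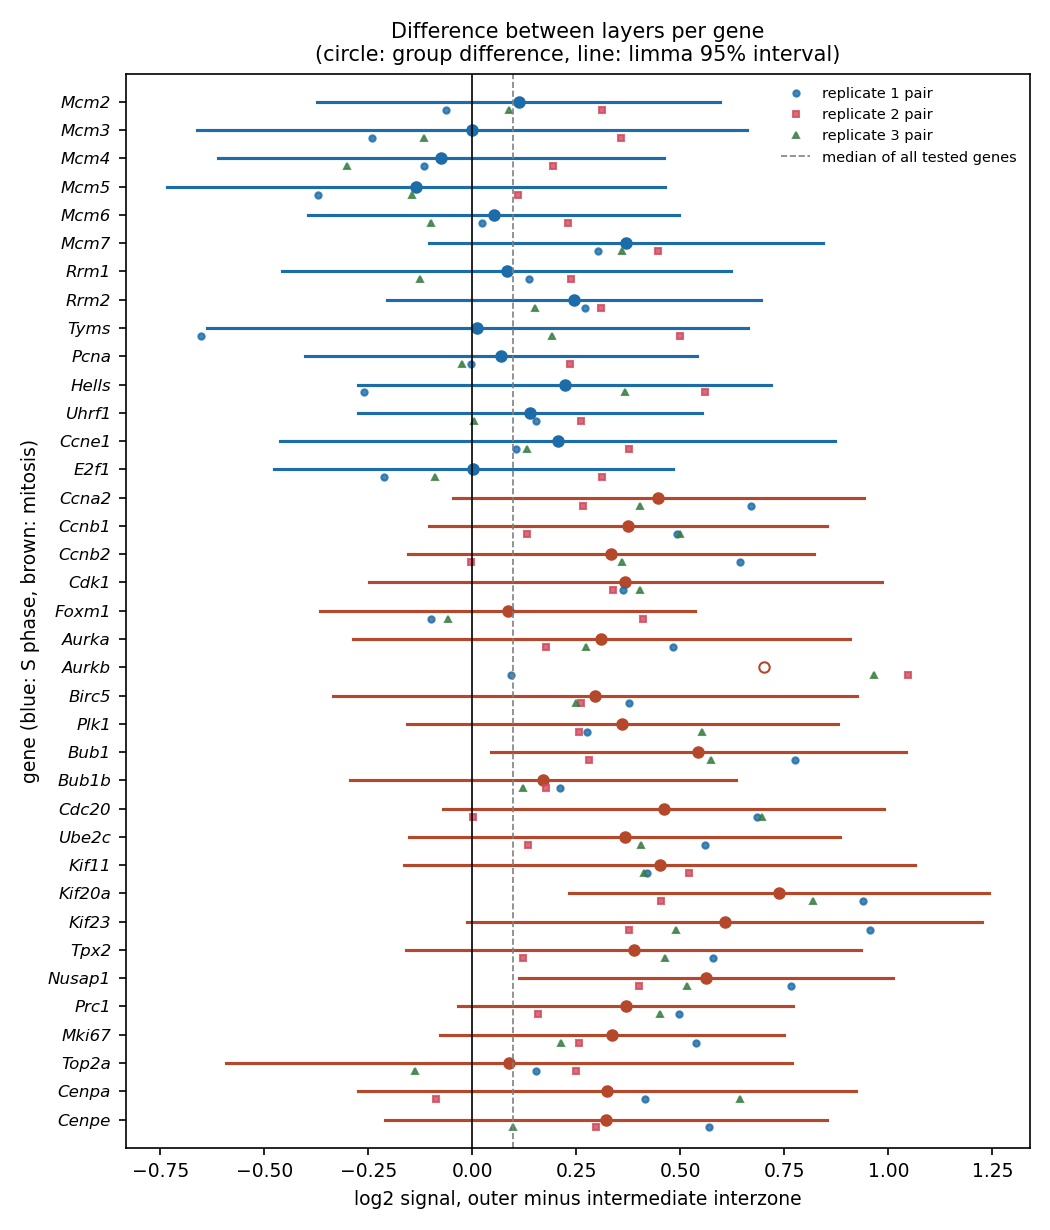
Difference in log2 signal (outer minus intermediate interzone) for each gene with limma's 95% interval, the differences of the same-numbered pairs as small marks, and the median of all tested genes (0.10) as a dashed line; Aurkb, open circle, was not tested. S phase genes run from -0.14 to 0.37 and mitosis genes from 0.08 to 0.74 on the 75th percentile scale, and median scaling moves all of them down, so that 8 of 23 mitosis and 0 of 14 S phase genes stay above 0.

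Of the mitosis roles, the spindle and midzone group had the highest median difference. Its 6 genes had a median of 0.51 and ran from 0.37 to 0.74. Kif20a, a kinesin of the central spindle needed for cytokinesis, read 2.58, 2.95 and 2.35 in the intermediate and 3.52, 3.41 and 3.17 in the outer layer. Every outer value lay above every intermediate one. The means were 2.63 ± 0.30 and 3.36 ± 0.18 (SD, n = 3), a difference of 0.74 or 1.67-fold (SE 0.21, interval 0.23 to 1.24, limma adjusted p = 0.114). With the replicate number as a block its limma adjusted p was 0.0524, the lowest for any of these genes under any setting, where that block called 9.09% of all genes (4.64% higher and 4.44% lower in the outer layer).

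Kif23, a kinesin of the centralspindlin complex that bundles the midzone, read 0.90, 1.34 and 0.67 against 1.86, 1.71 and 1.16. Outer replicate 3 was below intermediate replicate 2, and the difference was 0.61, or 1.52-fold (SE 0.26, interval -0.01 to 1.23, limma adjusted p = 0.246). Nusap1 (chr2:119475072-119475131), a spindle microtubule binding protein, read 2.57, 2.82 and 2.44 against 3.33, 3.22 and 2.95. Its layers did not overlap, and the difference was 0.56, or 1.48-fold (SE 0.19, limma adjusted p = 0.159). Prc1 (chr7:87461048-87461107), which crosslinks midzone microtubules, read 3.64, 3.88 and 3.53 against 4.14, 4.04 and 3.98, again without overlap, with a difference of 0.37 (SE 0.17, limma adjusted p = 0.272). With median scaling the difference of Prc1 was -0.02. Kif11, the motor that separates the spindle poles, had a difference of 0.45, and Tpx2, which activates Aurora A on the spindle, of 0.39.

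The spindle checkpoint delays anaphase until chromosomes are attached, and its release lets the anaphase-promoting complex destroy cyclin B and securin. These 4 genes had a median difference of 0.41. Bub1 (chr2:127626988-127627047), a checkpoint kinase, read 1.09, 1.59 and 1.02 against 1.86, 1.87 and 1.60. All outer values lay above the intermediate ones, outer replicate 3 only just above intermediate replicate 2, and the difference was 0.54, or 1.46-fold (SE 0.21, interval 0.04 to 1.04, limma adjusted p = 0.204). Cdc20 (chr4:118105534-118105593), the activator of the complex, read 4.31, 4.91 and 4.19 against 4.99, 4.91 and 4.88. The outer samples lay close together (4.93 ± 0.06) and the intermediate ones did not (4.47 ± 0.38, SD, n = 3), since intermediate replicate 2 was as high as the outer layer. The difference was 0.46 (SE 0.22, limma adjusted p = 0.295). Ube2c, the ubiquitin-conjugating enzyme of the complex, had a difference of 0.37 and Bub1b, the checkpoint protein BubR1, of 0.17.

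Cyclins A and B with Cdk1 drive entry into mitosis, and Foxm1 is a transcription factor for these genes. Ccnb2 (chr9:70255671-70255730) read 4.35, 4.74 and 4.24 against 4.99, 4.73 and 4.60, with a difference of 0.33 (SE 0.21, limma adjusted p = 0.399). As for Cdc20, the replicate 2 pair showed no gap. Ccna2 had a difference of 0.45, Ccnb1 of 0.37, Cdk1 of 0.37 and Foxm1 of 0.08. Birc5 (chr11:117716978-117717037) encodes survivin, a subunit of the chromosomal passenger complex, and read 5.12, 5.88 and 5.38 against 5.50, 6.14 and 5.63. The layers overlapped widely, with a difference of 0.30 (SE 0.27, limma adjusted p = 0.564). The mitotic kinases Aurka and Plk1 had differences of 0.31 and 0.36. Aurkb, the kinase of the passenger complex, read -3.21, -2.72 and -2.90 against -3.12, -1.68 and -1.93, near background and without a test.

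Mki67, which coats mitotic chromosomes and is the common proliferation marker, was read at chr7:142881591-142881650. Its values were 5.14, 5.07 and 5.08 in the intermediate and 5.68, 5.33 and 5.29 in the outer layer, without overlap. The means were 5.10 ± 0.04 and 5.43 ± 0.21 (SD, n = 3), a difference of 0.34 or 1.26-fold (SE 0.17, limma adjusted p = 0.323). A second probe of Mki67 gave 0.40 on the same scale. With median scaling the difference of the first probe was -0.06. Cenpa, the centromere histone, had a difference of 0.32, Cenpe, a kinetochore kinesin, of 0.32 and Top2a, which untangles chromosomes, of 0.09. Among the 22 tested mitosis genes, the interval of the main fit contained 0 for 19 and lay inside -1 to 1 for 17. Intervals with median scaling are not given.

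The layers did not overlap for 5 of the 36 tested genes (13.9%), named after their values were seen: Kif20a, Nusap1, Prc1, Bub1 and Mki67, all mitosis genes with the higher outer values on the 75th percentile scale. With median scaling the differences of Prc1 (-0.02) and Mki67 (-0.06) were negative, and those of Kif20a (0.35), Nusap1 (0.17) and Bub1 (0.15) stayed positive. Among all tested genes 27.1% did not overlap, and 15.6% did so with the higher values in the outer layer. So 5 of 22 tested mitosis genes (22.7%) compares with 15.6%, and 0 of 14 S phase genes with the same share.

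More than 1 probe was present for 11 of the 37 genes. Of their 14 further probes, 8 were above background on all 6 arrays, and 7 of these gave a difference within 0.1 of the brightest probe's. The exception was the third probe of Ccnb1, at -0.02. Among the further probes that were not above background on every array, Ccne1's gave -0.33 and the third of Cdk1 -0.60, against positive values from the brightest probes.

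Grouped by promoter, the median difference was 0.14 for the 7 genes with an E2F site, 0.33 for the 18 with a CHR element and no E2F site, and 0.08 for the 6 with neither. Since 15 of those 18 were mitosis genes, these groups largely repeat the division by phase. The only mitosis genes with a listed promoter and no CHR element, Nusap1 (0.56) and Bub1 (0.54), were in the group with neither motif and had differences above the median of the CHR group. The 3 S phase genes with a CHR element and no E2F site had a median of 0.20.

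Other genes of the cell cycle, 150 in 6 lists, were read in the same fit. Of 145 tested, none was called (0%), against 4.05% of all genes. The layers did not overlap for 30 (20.7%), against 27.1% of all genes. All 30 had the higher values in the outer layer on the 75th percentile scale, against 15.6% of all genes. Of these, only Prim1, Dnmt1, E2f8 and Atad2 came from the licensing, fork, nucleotide and G1/S lists, and the rest came from the mitotic lists. The 64 tested genes of origin licensing, fork enzymes, nucleotide supply and G1/S entry had a median difference of 0.10, against 0.10 for all genes, with 22 lower in the outer layer. The 81 tested genes of the kinetochore, spindle, mitotic entry and exit had a median of 0.35, with 9 lower, on the 75th percentile scale. Among all tested genes, 39.9% were lower in the outer layer on that scale. The 2 brightest genes of each replication list were Gins3, a helicase cofactor (0.29), Cdt1, the licensing factor (0.10), Lig1, which joins Okazaki fragments (0.23), Rpa1, which coats single-stranded DNA (-0.13), Ung, the uracil-DNA glycosylase (0.15) and Dtymk, thymidylate kinase (0.26). The 2 brightest of each mitotic list were Spc25 of the Ndc80 complex (0.39), Incenp of the passenger complex (0.26), Tacc3, a spindle protein (0.39), Kif22, a chromosome-arm kinesin (0.50), Hmgb2, a chromatin protein (0.66) and Cks1b, a Cdk subunit (0.21). Limma's adjusted p for these 12 ran from 0.147 to 0.818.

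Markers of 3 other cell types were called between the layers, where none of these genes was. Of 12 cartilage genes, 11 rose in the outer layer and 0 fell, and their summed signal relative to the 75th percentile was 76.8 to 146 on the intermediate and 618 to 910 on the outer arrays. Of 12 leukocyte and macrophage genes 9 fell, with a median difference over the list of -3.50 and a summed signal of 92.9 to 156 against 51.7 to 130. Of 12 endothelial genes 8 fell, with a median of -2.31 and a sum of 110 to 133 against 60.5 to 78.8. In each of these lists 1 bright gene had a positive difference that was not called and weighs on the sum, Itgam (0.76) and Kdr (0.82). None of 6 tested erythroid, 9 tested muscle or 4 tested epidermal genes was called. With the replicate number as a block 3 erythroid and 1 muscle gene were called lower in the outer layer, and with the slide as a block 3 and 3. Of all 18003 genes, the replicate block called 4.44% lower in the outer layer, and the slide block called 734 lower there. The erythroid sum ran from 439 to 1060 in the intermediate and from 52.3 to 597 in the outer layer, the muscle sum from 10.4 to 101 and from 1.85 to 51.8, and the epidermal sum from 11.3 to 15.8 and from 12.5 to 27.8. Of the 8 epidermal genes, Krt15, Krt10 and Trp63 were above background on all 6 arrays, Krt5 on 5, Krt1 on 4, Krt14 on 3, and Epcam and Cdh1 on none. The part of these cell types in the cell cycle values was not tested.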

How the data were processed

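Total RNA of 6 samples, 3 intermediate and 3 outer interzone (1 embryo per biological replicate), was hybridised to 1-colour Agilent arrays. The deposited scanner files give each spot's processed signal intensity, already background-corrected by Agilent Feature Extraction 10.7.3.1, with probe positions on mm9, per the file headers. The deposited value table, made by the authors, equals this processed signal as a ratio to each array's median, with every column median at 1, and served as an alternative. Partek 6.11.0321 is named in the submitters' processing notes, with no role given.

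From the deposited intensity, log2 values were taken relative to the 75th percentile of the 59305 non-control spots of each array, outlier spots were left out, and spots of a probe were averaged. Probes entered the test if the scanner called them well above background on every array of at least 1 layer (23884 probes), and each gene was read by its brightest tested probe. RefSeq accessions named 26762 of 28390 probes that had one, with file names used for the rest. Limma 3.58.1 (lmFit and eBayes, R 4.3.3) was fitted to all 6 arrays with the layer as the only factor. Its p-values were adjusted by Benjamini-Hochberg over 18003 genes, with a threshold of 0.05. The number of arrays limits the precision.

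The genes and lists were chosen with earlier results of these data known. Values in every sample are given for the 4 brightest S phase and 4 brightest mitosis genes, for the 3 of each class with the largest absolute difference (Mcm7, Rrm2 and Hells, and Kif20a, Aurkb and Kif23), and for Nusap1, Prc1 and Bub1, which were added after their values were seen because their layers did not overlap. The others are given by their difference. Of each other cell cycle list the 2 brightest genes are named. No p is given over a list. Deviations from the layer means correlated between same-numbered samples at r = 0.563, 0.480 and 0.372 across genes, and at most at 0.114 between other numbers. Deviations cancel out over the 3 arrays of a layer, so the lower correlations partly follow from the higher ones. The numbers were taken as pairs for the pair differences and the block alternatives only, and the main fit had no block. That the numbers mark 1 embryo is not stated in the labels. Exon annotation was not used here.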

Additional observations from a re-analysis of the deposited data

How the results depend on the processing

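No cell cycle gene of the 35 to 37 tested was called in any of 18 alternatives, though some called few genes of any kind. The lowest limma adjusted p among the cell cycle genes ran from 0.0524 (replicate block) to 0.385 (scaled to the median). Of these alternatives, the median scaling and the authors' deposited values gave the same results and are in effect 1 setting. The count of all genes called, 729, moved to 452 with quantile normalization, 1095 with the median scaling or the authors' deposited values, 0 without a filter (4268 at an unadjusted p under 0.05 in limma), 460 with a filter on all 6 arrays, 1215 with the slide as a block, 1369 on the shared slide alone, and from 65 (without intermediate replicate 3) to 1102 (without outer replicate 2) with 1 array left out. Of the genes called, 38.7% were higher in the outer layer, against 14.4% with the median scaling and 38.9% with quantile normalization. The share was 53.7% with the filter on all 6 arrays, 51.1% with the replicate number as a block and 75% with that block and quantile normalization. With 1 array left out it ran from 40.1% (without outer replicate 1) to 70.8% (without intermediate replicate 3). Which layer held more of the called genes thus depended on the setting.

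With the replicate number as a block, for which the numbers were taken to pair the samples, 1636 genes were called, 60 with the block and quantile normalization and 701 with the block and the slide. The block called none of the 36 genes and 2 of the 145 other tested cell cycle genes, against 9.09% of all genes. These 2 were Cenpp (0.89, limma adjusted p = 0.109, 0.047 with the block) and Psrc1 (0.98, limma adjusted p = 0.0684, 0.0497 with the block, and 0.047 with normexp background), both chosen after their values were seen.

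The S phase difference of 0.09 became -0.30 with the median scaling and with the authors' values, -0.19 with the slide as a block or on the shared slide, and -0.07 with both blocks, and ran from -0.08 to 0.23 with 1 array left out. The mitosis difference of 0.39 became -0.000458 with the median scaling and with the authors' values, and ran from 0.30 to 0.54 with 1 array left out. Mitosis minus S phase, 0.30, became 0.57 with the slide as a block or on the shared slide and 0.56 with both blocks, and ran from 0.16 to 0.39 with 1 array left out. Relative to all tested genes, the mitosis median lay 0.21 to 0.39 higher and the S phase median between -0.20 and 0.05 under the alternatives that kept a filter. Without a filter these were -0.07 and -0.36, since many dim probes then enter the median of all genes. The cause of the other moves was not tested. Aurkb and Tyms were too near background for a firm value.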
